A study of Mus musculus with 19 samples.

Results

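Genes were compared between the 4 bone marrow libraries labelled inflamed CCR1 and the 4 labelled resting CCR1/2, which are 8 of the 19 bulk RNA-seq libraries of the series analysed here. Both groups came from female REP mice of 8 to 12 weeks, which carry separate fluorescent reporters for chemokine receptors, CCR1, CCR2 and CCR3 among them, and both are labelled as monocytes from bone. The resting CCR1/2 cells came from resting mice and were sorted for expression of CCR1 and CCR2. The study's methods give CD11b+ Ly6C++ Ly6G- SiglecF- as the gate of such cells for its cultures. A like gate, also Ly6G- and SiglecF-, is given for its single-cell RNA-seq of CCR1/2 cells from bone marrow. The methods text gives no such markers for these bulk libraries. Inflammation in the study was induced with osmotic pumps that delivered IL-3, IL-6, GM-CSF and IFN-α for 7 days. The labels of the inflamed CCR1 libraries say no more than inflamed and monocytes, and the study's methods describe sorts of CCR1/2 and CCR2-only cells alone, so the gate of these 4 libraries is not given in the sources used here.

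The 2 groups differ both in the sorted population and in inflammation, and these effects cannot be told apart in this comparison. Nor can they be told apart from any difference in how the libraries of the groups were made. The same 4 inflamed CCR1 libraries were therefore also set beside 3 libraries of inflamed CCR1/2 cells, where both groups are labelled inflamed. Whether anything other than the sorted population differs between those groups is not given in the sources used here. The 2 comparisons share the inflamed CCR1 libraries, so their values are given side by side and neither supports the other. The labels do not say whether replicates are separate mice, and the p-values measure only the spread between these libraries.

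The label of monocytes was checked against marker genes, and the inflamed CCR1 libraries mostly went against it. Of 31 core monocyte genes, 27 were lower and 2 higher than in resting CCR1/2 cells by the cutoffs given below, beside 25.6% and 14.4% of all genes. Csf1r, Ccr2, Fn1 and Ctss were at a small share of their resting level. Of the genes in that list, 18 still averaged above 10 CPM (defined below), Lyz2 and Ly6c2 among them. The mRNAs of primary and specific neutrophil granules were abundant. They are called by their label in what follows.

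Neutrophils form in bone marrow through dividing stages, the myeloblast, promyelocyte and myelocyte, and then through stages that no longer divide, the metamyelocyte, band and segmented cell. Each stage transcribes its own granule proteins, with the proteases of primary (azurophil) granules first, the proteins of specific granules next and those of gelatinase granules last, followed by receptors of the mature cell. Monocytes leave the shared precursor under the factors Irf8 and Klf4, depend on the M-CSF receptor Csf1r, and leave the marrow through Ccr2, whereas Gfi1 and members of the C/EBP family drive the neutrophil path.

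Promoters of 4 granule and cell cycle genes are shown as examples of short elements, which other genes carry too. They are RefSeq sequences of build GRCm38.p6, read in the direction of the gene, and only bases before both the RefSeq start and the annotated gene start are printed. In Ngp (chr9:110419558-110419746, plus strand) and Ltf (chr9:111019042-111019270, plus strand), both specific granule genes, capitals mark a match to TTGCGCAA or TTNNGNAAT, letters of the kind that C/EBP factors bind. In Mcm5 (chr8:75109259-75109508, plus strand), a subunit of the replicative helicase, capitals mark 2 overlapping matches to the E2F letters TTTGGCGC, TTTCGCGC or TTTCCCGC, and in Cdk1 (chr10:69352939-69353162, minus strand), the mitotic kinase, they mark TTTGAA, the core of the cell cycle homology element. Cdk1 also holds E2F letters, which are left in lower case.
Ngp: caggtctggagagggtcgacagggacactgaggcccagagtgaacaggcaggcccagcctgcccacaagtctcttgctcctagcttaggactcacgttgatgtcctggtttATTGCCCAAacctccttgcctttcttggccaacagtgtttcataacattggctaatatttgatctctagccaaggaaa
Ltf: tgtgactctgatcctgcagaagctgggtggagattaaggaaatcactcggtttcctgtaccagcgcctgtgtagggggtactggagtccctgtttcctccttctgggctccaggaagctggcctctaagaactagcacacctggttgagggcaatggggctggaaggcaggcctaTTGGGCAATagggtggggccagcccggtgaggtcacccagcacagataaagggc
Mcm5: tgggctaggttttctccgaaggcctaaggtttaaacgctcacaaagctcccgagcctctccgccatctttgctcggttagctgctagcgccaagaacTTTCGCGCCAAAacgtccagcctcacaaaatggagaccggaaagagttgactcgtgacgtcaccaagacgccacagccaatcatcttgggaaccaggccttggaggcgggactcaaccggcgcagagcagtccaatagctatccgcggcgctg
Cdk1: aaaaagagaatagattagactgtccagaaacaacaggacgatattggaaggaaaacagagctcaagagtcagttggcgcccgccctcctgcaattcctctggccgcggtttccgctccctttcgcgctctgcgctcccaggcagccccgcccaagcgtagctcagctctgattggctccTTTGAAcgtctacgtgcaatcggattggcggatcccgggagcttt
The matches began 139 bases before the RefSeq start in Ngp, 75 in Ltf, 153 and 149 in Mcm5, and 71 in Cdk1. Over windows of 300 bases (250 before to 50 after the start), searched on both strands and counted once a gene, the C/EBP letters were found in 4 of 12 specific granule genes with a window (33.3%), in 1 of 10 primary granule genes (10.0%) and in 11.7% of 27025 genes. They were also found in 0 of 7 gelatinase granule genes and in 5 of 20 interferon-stimulated genes (25.0%). The E2F letters were found in 11 of 32 DNA replication genes (34.4%) and 3 of 41 mitosis genes (7.32%) against 1.91% of all genes. TTTGAA or TTCGAA was found in 32 of 41 mitosis genes (78.0%) against 19.4%. A match is a description of the letters only and was not tested as a binding site.

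Every resting CCR1/2 library was deeper than every inflamed CCR1 library. Reads on genes numbered 22566184 to 23706580 in the inflamed CCR1 libraries, 23846583 to 30502009 in the resting CCR1/2 libraries and 22268658 to 24444993 in the inflamed CCR1/2 libraries. The 20 genes with the most reads took 23.5% to 27.2% of reads in the inflamed CCR1 libraries and 12.4% to 13.98% in the resting CCR1/2 libraries, and the mean GC content of the genes, weighted by reads, was 50.1% to 50.2% against 49.1% to 49.3%. Genes with reads numbered 17186 to 17693 in the inflamed CCR1, 18580 to 20020 in the resting CCR1/2 and 17011 to 17729 in the inflamed CCR1/2 libraries. Ribosomal protein genes took 1.32% to 1.62%, 2.33% to 2.36% and 1.45% to 1.72% of reads in the same order. What these library differences go with was not tested. Levels are given as CPM, the reads of a gene scaled to the library's total with TMM factors, and differences as log2 fold changes with standard errors from edgeR's quasi-likelihood test. A gene was called where its adjusted p was below 0.05 and it differed by 1 or more on the log2 scale. Of 18652 genes tested, 2692 were called higher (14.4%) and 4769 lower (25.6%) in the inflamed CCR1 than in the resting CCR1/2 libraries, and the median log2 fold change over all genes was -0.24. A correction for GC content moved that median to 0.0016 and the share of calls that were higher from 36.1% to 45.7%. The correction took out each library's whole trend over GC content, its mean level included. It thus also re-centred the libraries, so a median near 0 was largely built in. The part of GC content itself in this change, or in the changes under this correction given below, was not tested. Against the inflamed CCR1/2 libraries, 2454 genes were called higher (13.2%) and 2718 lower (14.6%), with a median of 0.00. Counts of called list members below are to be read beside these shares of all genes. In bulk libraries, fewer cells of a type and less RNA per cell cannot be told apart.

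Primary granule genes were higher in the inflamed CCR1 libraries than in either other group. Of 11 genes tested, 10 were called higher and 1 lower against resting CCR1/2 cells, beside 14.4% and 25.6% of all genes, with a median log2 fold change of 3.44. Mpo, the myeloperoxidase of azurophil granules, stood at 1706, 3085, 1289 and 1227 CPM in resting CCR1/2 replicates 1 to 4, at 19959, 22685, 22052 and 18225 CPM in inflamed CCR1 replicates 1 to 4 and at 198, 122 and 114 CPM in inflamed CCR1/2 replicates 2 to 4. The 3 groups did not overlap, and the inflamed CCR1/2 libraries were the lowest. The log2 difference was 3.44 ± 0.34 (SE) (adjusted p = 2.45e-05) against resting CCR1/2 and 7.17 ± 0.24 (adjusted p = 1.32e-08) against inflamed CCR1/2 cells.

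Elane, neutrophil elastase, was at 1637, 2636, 1391 and 1324 CPM in the resting and 25799, 25502, 26197 and 22049 CPM in the inflamed CCR1 libraries, a log2 difference of 3.77 ± 0.24 (SE) (adjusted p = 1.5e-07). The lowest inflamed CCR1 library lay far above the highest resting one. Prtn3, the related serine protease proteinase 3, differed by 2.7 ± 0.15 (SE) on the log2 scale, with 416 to 627 CPM against 2666 to 3719 CPM, and by 3.32 under the GC correction. Ms4a3, a marker of granulocyte-monocyte progenitors, was at 73.8, 138, 54.8 and 60.9 CPM in the resting and 1595, 1559, 1570.3 and 1432 CPM in the inflamed CCR1 libraries, and at 7.20 to 29.8 CPM in the inflamed CCR1/2 libraries. Serpinb1a, which inhibits the serine proteases of these granules, had the smallest standard error of the list, with 186 ± 6.10 (SD, n = 4) CPM against 2377 ± 87.5 (SD, n = 4) CPM and a log2 difference of 3.64 ± 0.08 (SE). Srgn, the proteoglycan that packs proteases into granules, differed by 1.94 ± 0.11 (SE).

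Ctsc, the dipeptidyl peptidase that activates these proteases, went the other way. It was at 2132, 1514, 2205 and 1842 CPM in the resting libraries, at 148, 346, 187 and 176 CPM in the inflamed CCR1 libraries and at 11065, 11046 and 9605 CPM in the inflamed CCR1/2 libraries. Its log2 difference was -3.20 ± 0.27 (SE) against resting and -5.62 ± 0.35 against inflamed CCR1/2 cells (adjusted p = 2.75e-06 and 1.87e-05), so the genes for the proteases and for their activating enzyme moved in opposite directions in both comparisons. Calr, a chaperone of the endoplasmic reticulum, was called higher at 1.06 ± 0.12, close to the fold threshold, and was not called against inflamed CCR1/2 cells (0.53 ± 0.18). Summed over the list, primary granule genes reached 50908 to 60296 CPM in inflamed CCR1, 5538 to 8784 CPM in resting CCR1/2 and 11157 to 13111 CPM in inflamed CCR1/2 libraries. Ctsc alone made up most of the inflamed CCR1/2 sum.

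**Figure D1:**
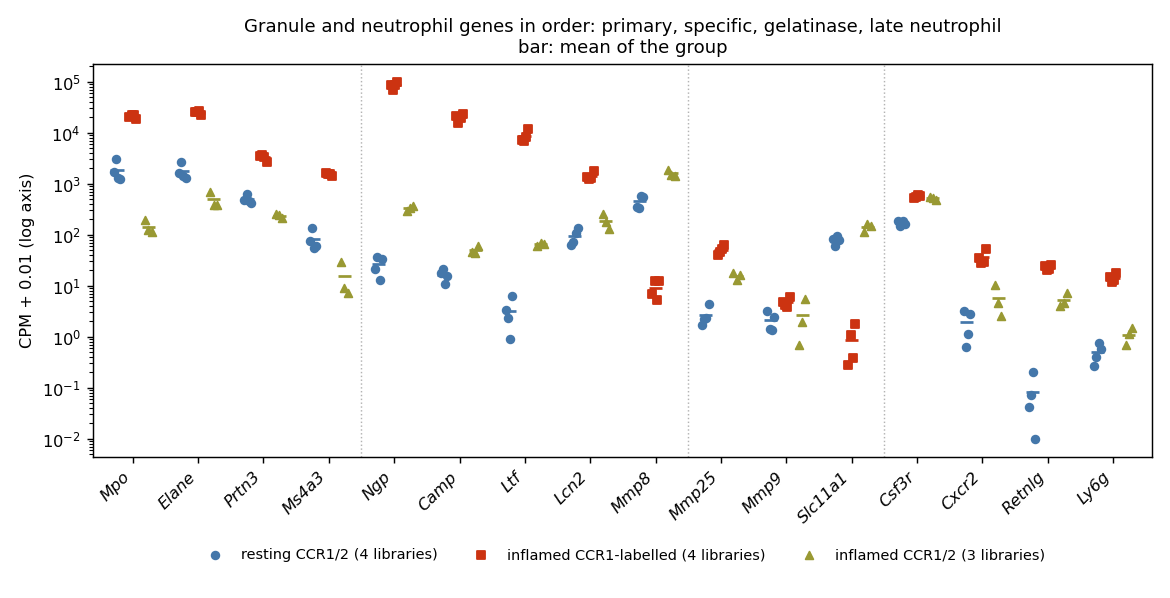
Levels of granule genes in CPM (log axis, with 0.01 added), 1 point a library, with bars at group means, for resting CCR1/2 (4 libraries), inflamed CCR1-labelled (4) and inflamed CCR1/2 (3). Mpo sat at 18225 to 22685 CPM in the inflamed CCR1-labelled libraries and at most at 3085 CPM in the others, and Ngp at 69722 to 100769.7 CPM against at most 363 CPM, while Mmp8 and Slc11a1 lay below both other groups.

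Specific granule genes had the highest median of the 3 granule stages against resting CCR1/2 cells, but not against inflamed CCR1/2 cells, where the median of the primary granule genes was 4.72. Of 11 tested, 9 were called higher and 1 lower against resting CCR1/2 cells (median log2 fold change 3.88), and 9 and 1 against inflamed CCR1/2 cells (3.60). Ngp, neutrophilic granule protein, was at 21.2, 36.8, 13.1 and 33.3 CPM in the resting, 86114, 69722, 87501 and 100769.7 CPM in the inflamed CCR1 and 293, 328 and 363 CPM in the inflamed CCR1/2 libraries. In the inflamed CCR1 libraries it took 6.83% to 9.12% of all reads, and in the resting libraries at most 0.0047%. The log2 difference was 11.63 ± 0.45 (SE) against resting CCR1/2 (adjusted p = 1.73e-08) and 8.03 ± 0.17 against inflamed CCR1/2 cells.

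Camp, the cathelicidin antimicrobial peptide, was at 17.5, 21.5, 10.6 and 15.3 CPM in the resting and 21647, 15746, 19153 and 23308 CPM in the inflamed CCR1 libraries (10.21 ± 0.29, adjusted p = 6.65e-11). Ltf, lactoferrin, was at 3.28, 2.35, 0.901 and 6.32 CPM against 7271, 6797, 8273 and 11748 CPM, with 60.7, 69.0 and 66.2 CPM in the inflamed CCR1/2 libraries. All 3 groups were apart for both genes, the inflamed CCR1/2 libraries lying between the others. The Ltf difference was 11.31 ± 0.59 (SE) and became 11.91 without resting replicate 4, the highest of the resting values. Lcn2, the siderophore-binding lipocalin, was at 62.6, 72.1, 109 and 136 CPM against 1327, 1254, 1321 and 1769.8 CPM (3.88 ± 0.22). Chil1, a chitinase-like protein of these granules, went from 0.0656 to 0.678 CPM to 628 to 934 CPM (10.77 ± 0.29), and Fcnb, ficolin B, from 263 to 307 CPM to 7123 to 10745 CPM (4.88 ± 0.13).

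Not every specific granule gene followed. Chil3, another chitinase-like protein, was at 11022, 13815, 22744 and 25045 CPM in the resting and 15434, 16331, 16495 and 18509.8 CPM in the inflamed CCR1 libraries. The groups overlapped, and the difference of -0.15 ± 0.20 (SE) was not called (adjusted p = 0.553), turning to 0.16 under the GC correction. Mmp8, neutrophil collagenase, was lower, at 6.87, 12.2, 5.18 and 12.2 CPM against 347, 327, 579 and 550.3 CPM in the resting and 1895, 1513 and 1411 CPM in the inflamed CCR1/2 libraries. That difference was -5.66 ± 0.32 (SE) against resting and -7.46 ± 0.38 against inflamed CCR1/2 cells (adjusted p = 1.31e-07 and 5.01e-06). Hp, haptoglobin, was called higher against resting cells (1.09 ± 0.08) and not against inflamed CCR1/2 cells (-0.20 ± 0.09). The specific granule list took 12.4% to 16.2% of reads in the inflamed CCR1 libraries against 1.69% to 3.05% in the resting libraries.

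Gelatinase granule genes, the latest of the granule stages, differed less. Of 9 tested, 3 were called higher (33.3%) and 1 lower (11.1%), beside 14.4% and 25.6% of all genes, with a median of 0.69. Against inflamed CCR1/2 cells these were 2 and 2 (22.2% each), beside 13.2% and 14.6% of all genes (median -0.06). Mmp9, the gelatinase that names the granule, was at 3.25, 1.44, 1.33 and 2.40 CPM in the resting and 4.82, 4.20, 3.84 and 6.03 CPM in the inflamed CCR1 libraries. The groups did not overlap, the difference was 1.12 ± 0.31 (SE) (adjusted p = 0.00588), and the call was lost without inflamed CCR1 replicate 4 (0.98). Pglyrp1, a peptidoglycan recognition protein, was at 116 to 163 CPM against 2482 to 3041 CPM (4.32 ± 0.11), and Mmp25, a membrane metalloprotease of neutrophils, at 1.67 to 4.47 CPM against 39.6 to 63.7 CPM (4.19 ± 0.25). Slc11a1, the phagosomal metal transporter Nramp1, was lower, at 0.273, 1.08, 0.370 and 1.74 CPM against 82.7, 60.1, 95.9 and 78.5 CPM in the resting libraries (-6.55 ± 0.35). Cybb and Cyba, the membrane subunits of the phagocyte oxidase, differed by 0.57 ± 0.09 (SE) and 0.69 ± 0.08 (SE) and stayed under the fold threshold.

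Of 18 genes of late and mature neutrophils tested, 13 were called higher (72.2%) and 4 lower (22.2%), beside 14.4% and 25.6% of all genes (median 3.12). Against inflamed CCR1/2 cells these were 10 (55.6%) and 5 (27.8%), beside 13.2% and 14.6% of all genes (median 1.91). S100a8, a subunit of the cytosolic protein calprotectin, was at 1681, 1865, 1545 and 1987 CPM in the resting, 11314, 6868, 5523 and 9877 CPM in the inflamed CCR1 and 466, 308 and 462 CPM in the inflamed CCR1/2 libraries (2.21 ± 0.21, adjusted p = 2.32e-06). Its partner S100a9 differed by 3.84 ± 0.15 (SE). Cxcr2, the receptor through which mature neutrophils leave the marrow, was at 3.18, 0.611, 1.14 and 2.80 CPM against 34.5, 27.4, 28.6 and 52.8 CPM (4.16 ± 0.43, adjusted p = 1.02e-05). Csf3r, the G-CSF receptor, was at 527 to 608 CPM against 147 to 188 CPM in the resting libraries (1.69 ± 0.09). It stood at 490.3 to 549 CPM in the inflamed CCR1/2 libraries and was not called against them (0.12 ± 0.09, adjusted p = 0.283).

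Ly6g, the surface antigen that the study's monocyte gates exclude, was at 0.263, 0.397, 0.745 and 0.555 CPM in the resting and 15.1, 12.0, 13.1 and 17.5 CPM in the inflamed CCR1 libraries (4.85 ± 0.26, adjusted p = 9.72e-10). The groups were apart, but the inflamed CCR1 values rest on 266 to 372 reads a library. Retnlg, a resistin-like protein of mature neutrophils, was at 0.0328, 0.0611, 0.196 and 0 CPM against 23.9, 20.8, 21.4 and 25.2 CPM, with 4.02, 4.65 and 7.11 CPM in the inflamed CCR1/2 libraries (8.28 ± 0.35, and 9.31 without resting replicate 3). The lower members included receptors of chemoattractants. Fpr1, a receptor for bacterial formyl peptides, was at 17.7 to 30.0 CPM in the resting and 0.136 to 0.682 CPM in the inflamed CCR1 libraries (-5.52 ± 0.29), its relative Fpr2 differed by -2.52 ± 0.19, and the adhesion ligand Selplg by -2.51 ± 0.08 (SE).

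**Figure D2:**
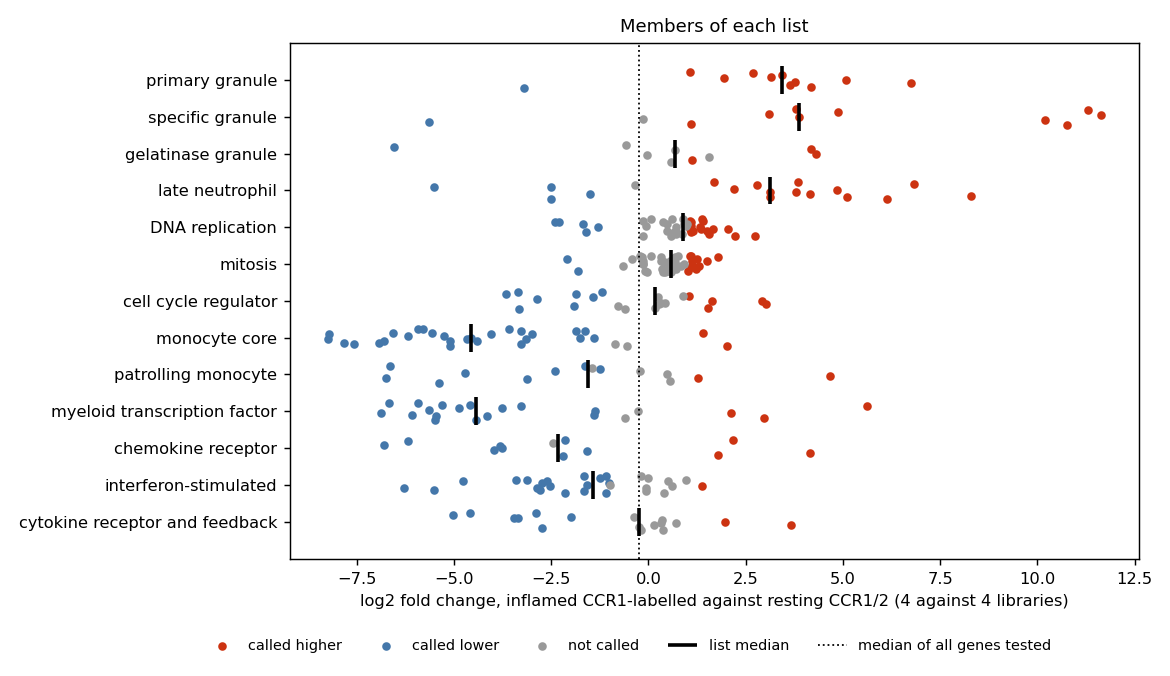
Log2 fold change of every tested member of each list, inflamed CCR1-labelled against resting CCR1/2 (4 against 4 libraries), 1 point a gene, colored by call, with a bar at each list's median and a dotted line at the median of all genes tested (-0.24). The medians of the primary granule (3.44), specific granule (3.88) and late neutrophil (3.12) lists lie to the right and those of the monocyte core (-4.56) and myeloid transcription factor (-4.43) lists to the left.

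Genes of DNA replication were mostly higher in the inflamed CCR1 libraries, by smaller steps. Of 39 tested, 16 were called higher (41.0%) and 5 lower (12.8%), beside 14.4% and 25.6% of all genes (median 0.88). Without the fold threshold 30 were higher and 5 lower, beside 26.0% and 33.1% of all genes. Pold1, the catalytic subunit of DNA polymerase delta, was at 45.9, 46.6, 48.8 and 54.7 CPM in the resting, 293, 340.0, 341 and 376 CPM in the inflamed CCR1 and 147, 122 and 133 CPM in the inflamed CCR1/2 libraries. The 3 groups were apart, and the difference was 2.75 ± 0.09 (SE) (adjusted p = 6.11e-12). Mcm2 and Mcm5, subunits of the replicative helicase, were at 91.3 to 122 and 188 to 265 CPM in the resting and at 477 to 587 and 622 to 767 CPM in the inflamed CCR1 libraries (2.22 ± 0.11 and 1.57 ± 0.10). Rrm2, a subunit of ribonucleotide reductase, was at 613 to 741 CPM against 1727 to 1851 CPM (1.38 ± 0.07), and Uhrf1, which carries DNA methylation through replication, differed by 2.03 ± 0.10 (SE). Pcna, the sliding clamp, differed by 0.60 ± 0.08 (SE) (adjusted p = 1.01e-05), under the fold threshold, and passed it under the GC correction (1.03).

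The 5 lower members were Dut, Ung, Cdt1, Rfc5 and Mcm6. Dut, the dUTPase, was at 83.3, 94.0, 86.6 and 87.4 CPM in the resting, 22.9, 17.9, 14 and 13.1 CPM in the inflamed CCR1 and 4.36, 2.30 and 2.68 CPM in the inflamed CCR1/2 libraries, and the inflamed CCR1 libraries lay between the other groups without overlap. Dut thus differed by -2.41 ± 0.16 (SE) against resting and by 2.46 ± 0.27 against inflamed CCR1/2 cells. The same order held for Ung, the uracil glycosylase, at -2.31 ± 0.19 (SE) and 2.41 ± 0.46, for Cdt1, a licensing factor, at -1.69 ± 0.11 (SE) and 1.58 ± 0.18, for Rfc5, a clamp loader subunit, at -1.60 ± 0.13 (SE) and 1.87 ± 0.19, and for Mcm6 at -1.29 ± 0.12 (SE) and 1.93 ± 0.15. Against inflamed CCR1/2 cells, 18 of the 39 replication genes were called higher (46.2%) and 0 lower, beside 13.2% and 14.6% of all genes (median 1.00). Without the fold threshold that count was 36 higher and 0 lower, beside 20.2% and 23.0% of all genes.

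Mitosis genes called against resting cells were mostly higher too, by less. Of 47 tested, 11 were called higher (23.4%) and 2 lower (4.26%), beside 14.4% and 25.6% of all genes (median 0.57). Without the fold threshold these counts were 35 and 4, beside 26.0% and 33.1% of all genes. Under the GC correction they were 19 and 2, while the count of all genes called higher rose from 2692 to 3450. Mki67, the proliferation antigen, was at 458, 479, 456 and 513 CPM in the resting and 768, 735, 773 and 829 CPM in the inflamed CCR1 libraries, apart in all 8 but by 0.66 ± 0.07 (SE) (adjusted p = 2.2e-06), under the fold threshold. Cdk1 was at 192, 201, 244 and 242 CPM against 356, 327, 379.8 and 376 CPM (0.67 ± 0.08), and Top2a, topoisomerase II alpha, differed by 0.41 ± 0.08 (SE). Plk1, a mitotic kinase, passed the threshold, at 174, 169, 206 and 218 CPM against 548, 521, 600.4 and 552 CPM (1.5 ± 0.08, adjusted p = 7.6e-10), as did the spindle genes Kif2c (1.30 ± 0.09) and Tacc3 (1.23 ± 0.08). Racgap1, needed for cytokinesis, was lower, at 116, 88.9, 96.3 and 91.7 CPM against 345, 366, 447 and 483 CPM (-2.10 ± 0.11), and so was cyclin A2, Ccna2 (-1.80 ± 0.10). Neither was called against inflamed CCR1/2 cells (0.21 ± 0.12 and 0.28 ± 0.13). There, 7 mitosis genes were called higher (14.9%, near the 13.2% of all genes) and 1 lower (median 0.52), and 3 higher without inflamed CCR1/2 replicate 3. Without the fold threshold 33 mitosis genes were higher and 2 lower there, beside 20.2% and 23.0% of all genes. Ccnb1 had no counted reads in any of these libraries. Only reads that align to 1 place were counted, so this does not show that its mRNA was absent.

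**Figure D3:**
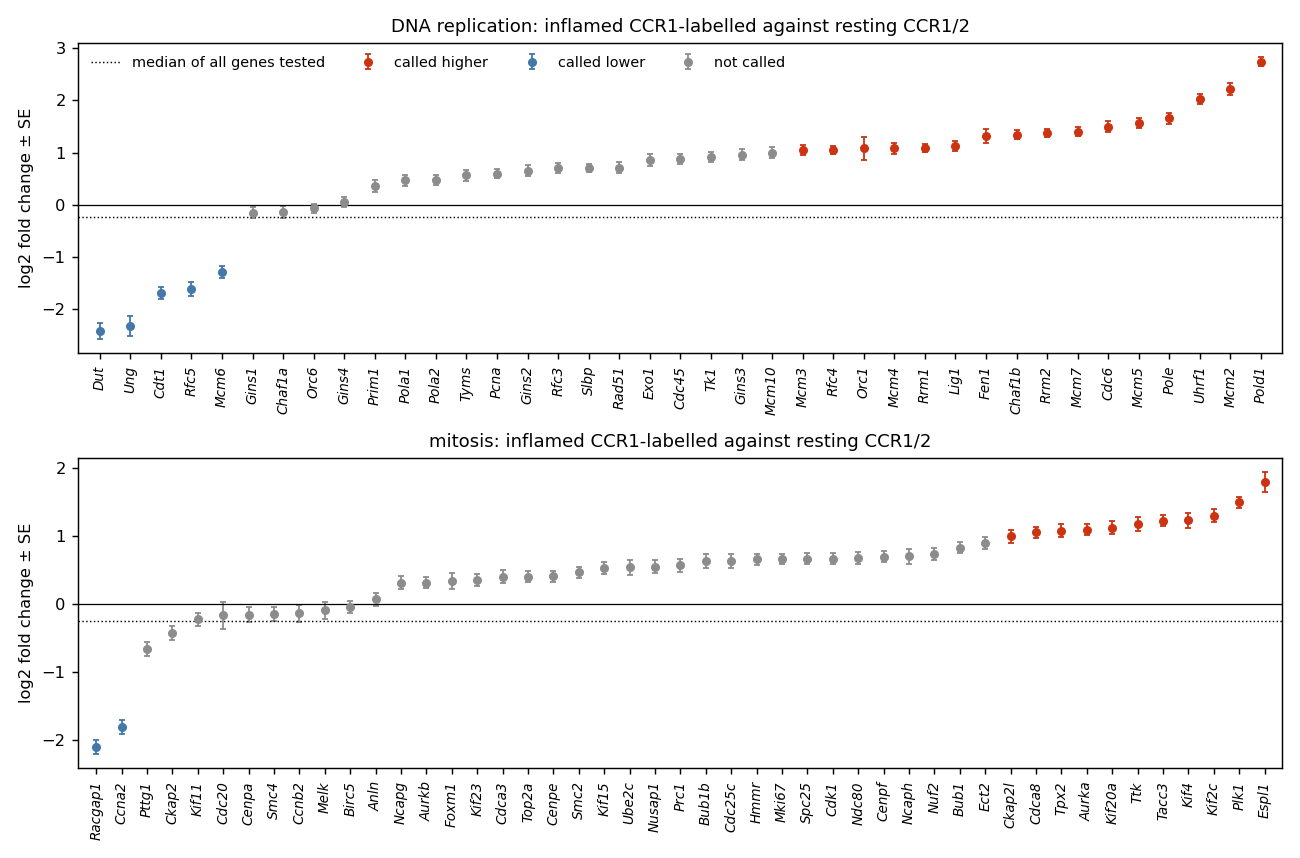
Log2 fold change with its SE for each tested DNA replication and mitosis gene, inflamed CCR1-labelled against resting CCR1/2, ordered by size and colored by call, with the median of all genes tested as a dotted line. Pold1 (2.75) and Plk1 (1.5) lie toward the high end, and Dut (-2.41) and Racgap1 (-2.10) at the low end.

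Regulators of the step into S phase split. Of 21 tested, 5 were called higher (23.8%) and 8 lower (38.1%), beside 14.4% and 25.6% of all genes (median 0.18). Cdk6, a kinase that pairs with D-type cyclins, was at 50.1, 75.5, 46.8 and 43.0 CPM in the resting and 419, 431, 443 and 389 CPM in the inflamed CCR1 libraries (2.91 ± 0.18, adjusted p = 1.29e-08), with 25.2 to 36.6 CPM in the inflamed CCR1/2 libraries. Cyclin D2, Ccnd2, was at 9.42, 11.7, 3.37 and 5.15 CPM against 59.9, 94.3, 49.7 and 48.1 CPM (3.02 ± 0.42), while cyclin D3, Ccnd3, was lower at 177 to 207 CPM against 434 to 572 CPM (-1.42 ± 0.09). The D-type cyclins thus went in different directions. Cyclin E1, Ccne1, was at 4.34 to 6.56 CPM against 47.4 to 59.8 CPM (-3.34 ± 0.14), and the inhibitor p21, Cdkn1a, at 2.50, 3.57, 2.54 and 3.30 CPM against 38.0, 26.1, 39.1 and 43.9 CPM (-3.66 ± 0.18, adjusted p = 2.75e-10). Ccnd3 and Ccne1 were not called against inflamed CCR1/2 cells (0.09 ± 0.10 and -0.18 ± 0.23), whereas Cdkn1a was (-4.59 ± 0.16).

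Monocyte genes were lower nearly throughout. Of 31 core genes tested, 27 were called lower and 2 higher, beside 25.6% and 14.4% of all genes, with a median of -4.56, and 27 and 1 against inflamed CCR1/2 cells (median -5.81). Csf1r was at 427, 319.5, 483 and 397 CPM in the resting, 13.7, 24.1, 16.2 and 16.8 CPM in the inflamed CCR1 and 931, 1191 and 1118 CPM in the inflamed CCR1/2 libraries. The inflamed CCR1 libraries were the lowest, without overlap, at -4.56 ± 0.17 (SE) (adjusted p = 4.63e-11) and -5.93 ± 0.21 on the log2 scale. Cx3cr1, the fractalkine receptor, was at 173, 118, 195 and 198 CPM against 2.32, 1.67, 3.0 and 2.54 CPM (-6.19 ± 0.18, adjusted p = 2.38e-12). Fn1, fibronectin, was at 884, 777, 1203 and 1314 CPM against 6.10, 4.39, 0.878 and 2.73 CPM (-8.23 ± 0.49), and Ctss, the lysosomal protease cathepsin S, at 1344 to 1903 CPM against 11.5 to 17.6 CPM (-6.94 ± 0.16). These genes fell to a small share of their resting level, and for Fn1 and Cx3cr1 to single digits.

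F13a1, the coagulation factor XIII A chain of monocytes, differed by -4.42 ± 0.15 (SE) and Ms4a6c by -5.80 ± 0.18, although 53% of the exonic bases of Ms4a6c overlap the gene BE692007. Lyz2, lysozyme, which monocytes and neutrophils both make, was lower by less, at 8264, 5989, 8226 and 10629 CPM against 27214, 22288, 32888 and 27937 CPM (-1.77 ± 0.15). Ly6c2, part of the Ly6C antigen of those gates, was at 1415, 1366, 1418 and 1484 CPM against 2281, 2301, 2564 and 2972 CPM, apart in all 8 libraries but under the fold threshold (-0.87 ± 0.08). Clec12a and Cd300lf, inhibitory myeloid receptors that granulocytes also carry, were the 2 called higher (1.41 ± 0.08 and 2.02 ± 0.12). The summed level of the core list was 11524 to 16503 CPM in inflamed CCR1, 48241 to 66540.0 CPM in resting CCR1/2 and 88885 to 96434 CPM in inflamed CCR1/2 libraries. Of 14 genes of patrolling monocytes, 8 were called lower (57.1%) and 2 higher (14.3%), beside 25.6% and 14.4% of all genes (median -1.55). The summed level of this list was higher, at 821 to 1040 CPM in inflamed CCR1 against 387 to 477 CPM in resting CCR1/2 libraries. Adgre4, an adhesion receptor of that list, differed by -6.75 ± 0.20, and the 2 higher were the tetraspanin Cd9 (4.66 ± 0.19) and the sialomucin Spn (1.26 ± 0.10).

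**Figure D4:**
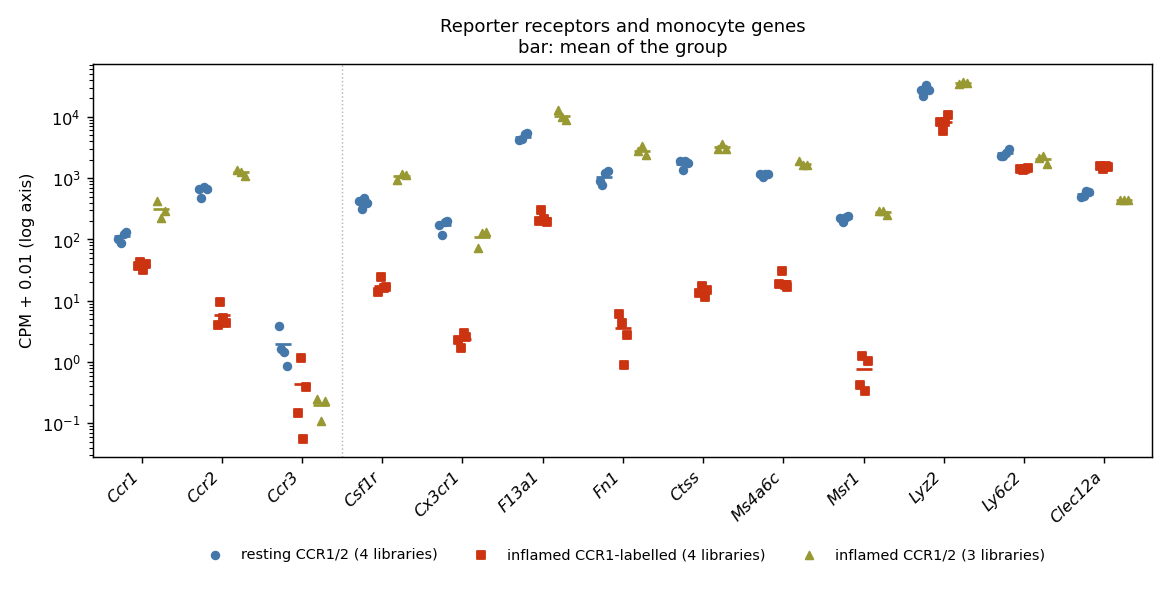
Levels of monocyte and chemokine receptor genes in CPM (log axis, with 0.01 added), 1 point a library, with bars at group means, for the 3 groups. Csf1r lies at 13.7 to 24.1 CPM and Ccr2 at 4.05 to 9.58 CPM in the inflamed CCR1-labelled libraries, below every library of both other groups.

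The receptors that the libraries are labelled for were read next. Ccr1, the receptor the inflamed CCR1 libraries are labelled for, was at 102, 88.2, 122 and 135 CPM in the resting, 37.2, 42.8, 32.0 and 40.1 CPM in the inflamed CCR1 and 421, 221 and 288 CPM in the inflamed CCR1/2 libraries. The libraries labelled CCR1 held the lowest Ccr1 mRNA of the 3 groups, at -1.59 ± 0.12 (SE) (adjusted p = 3.29e-08) and -3.02 ± 0.20 (adjusted p = 6.23e-07). Ccr2 was at 675, 474, 720.5 and 662 CPM against 4.05, 9.58, 5.27 and 4.38 CPM (-6.80 ± 0.27, adjusted p = 1.54e-09), with 1355, 1275 and 1092 CPM in the inflamed CCR1/2 libraries (-7.73 ± 0.35). Low Ccr2 mRNA in cells not labelled CCR2 goes with their label, and low Ccr1 mRNA does not. Ccr3 was called lower (-2.19 ± 0.71, adjusted p = 0.0167) although its groups overlapped, and the call was lost without resting replicate 1, without inflamed CCR1 replicate 1 and under the GC correction. Of 12 chemokine and chemoattractant receptors, 8 were called lower (66.7%) and 3 higher (25.0%), beside 25.6% and 14.4% of all genes (median -2.33). The higher ones were Cxcr2, C5ar1, the C5a receptor (2.17 ± 0.12), and Ccrl2 (1.79 ± 0.15). Of the other genes of the monocyte gates, Itgam (CD11b) differed by -0.04 ± 0.11 (SE) (adjusted p = 0.767) and by 0.13 under the GC correction, although 69% of its exonic bases overlap the gene Gm49368, and Siglecf was higher, at 25.3, 25.1, 28.5 and 26.0 CPM against 1.21, 2.81, 1.72 and 3.24 CPM (3.49 ± 0.24).

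Transcription factors of myeloid fate were mostly lower. Of 21 tested, 16 were called lower (76.2%) and 3 higher (14.3%), beside 25.6% and 14.4% of all genes (median -4.43). Against inflamed CCR1/2 cells these were 12 (57.1%) and 5 (23.8%), beside 14.6% and 13.2% of all genes (median -2.72). Gfi1, a repressor needed for neutrophils, was at 0.656, 0.886, 0.0392 and 0.154 CPM in the resting, 25.9, 21, 25.7 and 19.8 CPM in the inflamed CCR1 and 0, 0 and 0.132 CPM in the inflamed CCR1/2 libraries (5.62 ± 0.46, adjusted p = 4.62e-07, and 6.30 without resting replicate 2). The inflamed CCR1 libraries stood alone. Myb, a factor of dividing progenitors, was at 20.4, 29.7, 14 and 16.7 CPM against 99.1, 87.4, 88.9 and 89.8 CPM (2.12 ± 0.21), and at 1.45 to 2.45 CPM in the inflamed CCR1/2 libraries (5.63 ± 0.19). The third higher gene of this list was Per3, a period gene of the circadian clock (2.98 ± 0.41, and 3.61 without resting replicate 2).

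Irf8 was at 456, 479.6, 522 and 594 CPM in the resting, 8.28, 15.6, 11 and 6.88 CPM in the inflamed CCR1 and 50.8, 92.2 and 96.5 CPM in the inflamed CCR1/2 libraries (-5.65 ± 0.23, adjusted p = 7.63e-10). Klf4 was at 99.2, 107, 109 and 135 CPM against 0.819, 2.98, 1.71 and 1.32 CPM (-6.07 ± 0.25), and Zeb2, a repressor that monocytes need, at 313 to 395 CPM against 18.2 to 20.9 CPM (-4.16 ± 0.12). These 3 were also lower than in inflamed CCR1/2 cells (-2.94 ± 0.35, -3.97 ± 0.33 and -4.13 ± 0.11). Spi1, which encodes PU.1, a factor of both monocytes and neutrophils, was at 517, 468, 631 and 639 CPM in the resting, 23.3, 24.1, 24.5 and 24.9 CPM in the inflamed CCR1 and 30.9, 33.1 and 37.6 CPM in the inflamed CCR1/2 libraries. It was low in both inflamed groups, at -4.58 ± 0.10 (SE) against resting (adjusted p = 1.99e-13) and -0.49 ± 0.13, not called, against inflamed CCR1/2 cells. Cebpd was likewise low in both, at 9.01, 6.74, 6.33 and 6.26 CPM in inflamed CCR1 and 2.96, 2.75 and 3.78 CPM in inflamed CCR1/2 libraries against 142, 139.5, 169.9 and 143 CPM in resting ones (-4.43 ± 0.13 and 1.16 ± 0.23). Cebpa, the C/EBP factor of early granulocytes, was at 18.7, 22.7, 30.4 and 31.5 CPM against 11.6, 10.0, 10.6 and 7.72 CPM (-1.40 ± 0.17), a call lost under the GC correction (-0.77).

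**Figure D5:**
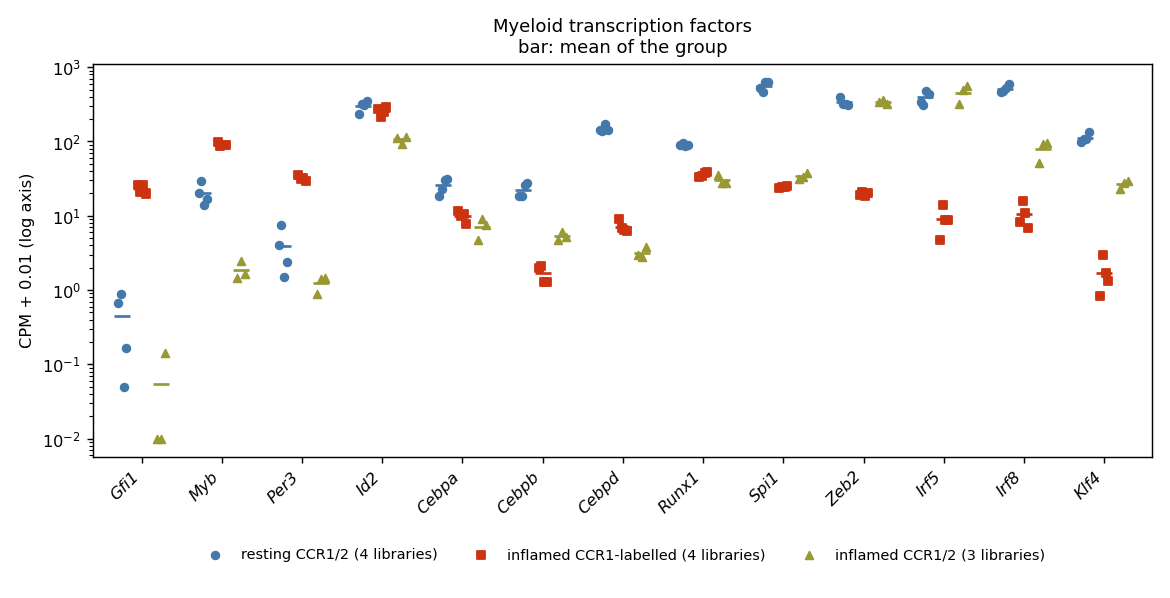
Levels of myeloid transcription factor genes in CPM (log axis, with 0.01 added), 1 point a library, with bars at group means, for the 3 groups. Gfi1 (19.8 to 25.9 CPM) and Myb (87.4 to 99.1 CPM) are highest in the inflamed CCR1-labelled libraries, Irf8 and Klf4 are lowest there, and Spi1 is low in both inflamed groups.

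Receptors of the infused cytokines and interferon-stimulated genes were read because the pumps held IL-3, IL-6, GM-CSF and IFN-α. Il6ra, the IL-6 receptor, was at 290.4, 292, 336 and 321 CPM in the resting, 9.10, 10.1, 8.59 and 11.3 CPM in the inflamed CCR1 and 94.5, 98.2 and 95.9 CPM in the inflamed CCR1/2 libraries (-5.03 ± 0.11, adjusted p = 1.99e-13). Csf2ra, the GM-CSF receptor alpha chain, was at 53.9 to 69.9 CPM against 591 to 665 CPM (-3.46 ± 0.10, and -2.63 under the GC correction), and did not pass the test against inflamed CCR1/2 cells (0.53 ± 0.21, adjusted p = 0.0619). The list of these receptors and their feedback also holds Il4ra, a receptor of IL-4, which the pumps did not hold. Of its 17 genes tested, 7 were called lower (41.2%) and 2 higher (11.8%), beside 25.6% and 14.4% of all genes (median -0.25). The 2 higher were Cish, a STAT5 target (3.67 ± 0.37), and Il4ra (1.98 ± 0.17), both of which were lower than in inflamed CCR1/2 cells (-1.19 ± 0.21 and -1.63 ± 0.12).

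Of 28 interferon-stimulated genes, 18 were called lower (64.3%) and 1 higher (3.57%) than in resting CCR1/2 cells (median -1.42), beside 25.6% and 14.4% of all genes. Against inflamed CCR1/2 cells 26 were called lower (92.9%) and 0 higher (median -2.86), beside 14.6% and 13.2% of all genes. Their summed level was 896 to 1135 CPM in the inflamed CCR1, 1546 to 2633 CPM in the resting CCR1/2 and 5226 to 6668 CPM in the inflamed CCR1/2 libraries. Libraries labelled inflamed thus held the lowest and the highest sums. Ifit3, an antiviral effector, was at 91.6, 54.4, 48.8 and 55.8 CPM in the resting and 0.864, 1.40, 1.48 and 1.88 CPM in the inflamed CCR1 libraries (-5.53 ± 0.27). Mx1, a GTPase that blocks viruses, was at 34.6 to 66.5 CPM against 0.323 to 1.13 CPM (-6.28 ± 0.36). Oas2, a sensor of double-stranded RNA, was the 1 called higher (1.38 ± 0.43), a call lost without inflamed CCR1 replicate 4 and without a filter on low counts. Oas1a did not pass the test (0.41 ± 0.19, adjusted p = 0.0846).

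Over all genes, those with the smallest p that had non-overlapping groups were listed by a rule on rank. Among the higher ones, Itgb2l, a beta integrin of neutrophils, was at 0.0656, 0.0917, 0.0392 and 0.277 CPM in the resting and 1001, 841, 1026 and 1196 CPM in the inflamed CCR1 libraries (12.91 ± 0.24, adjusted p = 1.49e-13, and 13.78 without resting replicate 4). Chit1, chitotriosidase, was at 0 to 0.122 CPM against 211 to 254 CPM (11.83 ± 0.26, and 12.57 without resting replicate 2), and Inhba, a subunit of activins, at 0.245 to 0.624 CPM against 140.2 to 166 CPM (8.45 ± 0.18). The other higher ones were the transcription factor Ets1 (6.05 ± 0.12), the stress kinase Mapk13 (5.16 ± 0.12), the granule-associated calcium-binding protein Gca (4.81 ± 0.11), the actin regulator Cyfip2 (3.95 ± 0.09) and Serpinb1a. Each was also called higher against inflamed CCR1/2 cells. Among the lower ones, Pid1 was at 210.3, 189.8, 194 and 196 CPM against 0.364, 0.316, 0.323 and 0.0942 CPM (-9.50 ± 0.18, adjusted p = 1.49e-13), and Otulinl, Cd302, Rnd3, Sh3glb1 and Il6ra, which differed by -5.03 to -6.78, were called lower in both comparisons. Iscu, the scaffold of iron-sulfur cluster assembly, was at 145 to 188 CPM in the resting, 2.94 to 3.78 CPM in the inflamed CCR1 and 3.73 to 4.85 CPM in the inflamed CCR1/2 libraries, so it differed by -5.71 ± 0.11 (SE) from resting cells and was not called within the inflamed groups (-0.39 ± 0.23). Sap30, a subunit of the Sin3 histone deacetylase complex, differed by -7.06 ± 0.15 (SE) and -1.49 ± 0.25.

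Markers of some other cell types moved with these groups, and their part in the results was not tested. Over all genes, 14.4% were called higher and 25.6% lower against resting CCR1/2 cells. Against inflamed CCR1/2 cells these shares were 13.2% and 14.6%. Of 8 basophil and mast cell genes, 7 were called higher against resting and 2 against inflamed CCR1/2 cells, with a summed level of 871 to 1021 CPM against 6.87 to 30.7 CPM in the resting libraries. Most of that sum was Hdc, histidine decarboxylase, at 687 to 784 CPM, whereas the basophil protease Prss34 was at 269, 214, 99.4 and 159 CPM against 0, 2.41, 15.3 and 0 CPM (5.44 ± 1.32, and 7.83 without resting replicate 3) and at 115 to 159 CPM in the inflamed CCR1/2 libraries. The call of Prss34 was lost with a replicate block (6.39). All 4 eosinophil genes tested were called higher, with sums of 39.3 to 89.1 CPM against 1.48 to 3.70 CPM. Prg2, the eosinophil major basic protein, was at 12.1, 52.1, 21.5 and 40.0 CPM against 0.0328, 0, 0 and 0 CPM (11.20 ± 0.84, and 12.64 without resting replicate 1). Epx, eosinophil peroxidase, had no read in the resting libraries and 22 to 200 reads in the inflamed CCR1 libraries, at least 163-fold higher with 3 reads over the resting group as the floor.

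Stem and progenitor genes were called higher in 4 (36.4%) and lower in 3 (27.3%) of 11, beside 14.4% and 25.6% of all genes. Kit, the stem cell factor receptor, was at 2.76, 7.64, 2.19 and 1.08 CPM against 132, 155, 182 and 172 CPM (5.46 ± 0.55, and 6.33 without resting replicate 2), Erg at 0 to 0.825 CPM against 53.3 to 65.8 CPM (7.54 ± 0.45, and 8.99 without resting replicate 2), and Cd34 was lower at 1.41 to 2.54 CPM against 12.9 to 18.8 CPM (-3.09 ± 0.21). Of 17 tissue macrophage genes, 12 were called lower (6 against inflamed CCR1/2 cells) and 2 higher, the iron exporter Slc40a1 (4.93 ± 0.47) and the adhesion molecule Vcam1 (4.08 ± 0.41), while the summed level of the list was 926 to 1199 CPM against 299.6 to 410.5 CPM. Dendritic cell genes were called lower in 11 of 14 and higher in 0, with sums of 14.5 to 27.3 CPM against 206 to 514 CPM. The T and NK cell sum of 1361 to 1708 CPM against 30.8 to 82.0 CPM was nearly all Nkg7, at 1359.7 to 1706 CPM against 29.7 to 80.1 CPM (4.94 ± 0.39), and 2 of the 12 genes were called higher (16.7%) and 2 lower (16.7%), beside 14.4% and 25.6% of all genes. Erythroid sums were 0.723 to 2.09 CPM against 59.6 to 182 CPM, with 9 of 12 genes called lower (2 against inflamed CCR1/2 cells), B cell sums 53.3 to 66.7 CPM against 34.3 to 42.6 CPM, with 2 of 11 called higher (18.2%) and 4 lower (36.4%), also near the shares of all genes, and megakaryocyte sums 4.34 to 5.96 CPM against 0.459 to 1.26 CPM, with 3 of 7 called higher and 0 lower.

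The single-gene differences were also read with an exact two-sided permutation test over the 8 libraries, whose smallest possible p is 0.0286. That value was reached by every gene named here as called against resting cells, other than Ccr3, since their 4 and 4 libraries did not overlap. Many of these genes were named for a small p, and some for their lack of overlap, in the same libraries. The outcome was thus largely set by the choice of genes and adds nothing to the calls. The share of all genes without overlap was not computed. Percentages and CPM carry counting error as well as the spread between libraries, and PCR copies of a read were not marked by molecular identifiers. Members of families with closely similar copies, such as the chitinase-like gene Chil3 and the Ms4a6 genes, were counted only from reads that align to 1 place, so their levels may be incomplete.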

How the data were processed

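Bulk RNA-seq counts of bone marrow cells sorted from REP mice were analysed, 4 libraries labelled inflamed CCR1, 4 resting CCR1/2 and 3 inflamed CCR1/2. Groups were taken from the sample titles. The authors checked paired-end reads with fastp, aligned them to GRCm38 with STAR 2.7.10a, dropped reads with several places or fewer than 35 matched bases, and deposited raw counts per gene of Ensembl release 91. The strand counted is not given in the sources used here. Of the columns of the table, 1, named as replicate 1 of the inflamed CCR1/2 cells, matched no sample record and was not used. Genes of chromosome 14 and part of those of chromosomes 15 to 19 were not analysed here, so the lists lack members, 1 of 12 primary granule, 1 of 13 specific granule, 2 of 10 basophil and mast cell and 3 of 8 eosinophil genes among them.

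The genes tested averaged 1 read or more a library over 19 libraries (18652 of 50854). Each comparison was fitted on its own 2 groups, without covariates, with edgeR 4.0.16 in R 4.3.3 (TMM, robust quasi-likelihood F test, two-sided, Benjamini-Hochberg adjustment over all genes tested), at the study's cutoffs of 0.05 and 1. The SE was taken from the F statistic and the size of the change. CPM used TMM factors over all 19 libraries. An exact permutation test was added for single genes. On simulated counts the main comparison found 94% of genes changed by 1.5 and 96% of genes changed by 2 on the log2 scale, and 3.06% of its calls were false. That simulation changed 100 of 18652 genes by each size, equally up and down. In the data 40.0% of genes were called, more of them lower, so these rates may not hold for the data. Alternatives were DESeq2 1.42.0, RLE factors, other filters, 1 fit of all libraries, a GC correction (a value for 99.82% of genes), a replicate block, no fold cutoff and leaving out each library. Positions and overlaps are from GENCODE M21, and promoters from RefSeq.

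The libraries, gene lists and tests were chosen with earlier results of these data known. Named genes were the genes of the sort, a fixed set of stage and lineage genes, the 3 members of each list with the smallest p called in each direction and its 2 members with the highest mean, and over all genes the 8 with the smallest p in each direction among calls without overlap, leaving out symbols of the Gm, Rik and pseudogene kind. Calr, Hp, Fpr2, Ung, Mcm6 and Mx1 were named after their values were seen. A few genes that the rule names are not reported here.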

Additional observations from a re-analysis of the deposited data

Results flagged for a closer look

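In 15 of 233 groups of 4 libraries, over the 118 genes named, the highest or lowest library lay farther from the next than Dixon's 95% limit for 4 values allows. Chance flags about 1 in 20 groups, so this number is little above it. The values below are CPM, and no explanation was tested.

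In the resting CCR1/2 libraries, replicate 1 was the highest for Ifit3 (91.6 against 55.8 in the next library), Mx1 (66.5 against 39.4), Zeb2 (395 against 323) and Prg2 (0.0328, from 1 read, against 0), and the lowest for Cyfip2 (29.6 against 33.2). Replicate 2 was the lowest for Ms4a6c (1056 against 1163), and replicate 3 was the highest for Cebpd (169.9 against 143) and Prss34 (15.3 against 2.41).

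In the inflamed CCR1 libraries, replicate 2 was the highest for Ms4a6c (30.6 against 19.1) and the lowest for Fpr1 (0.136 against 0.612, on 3 to 15 reads) and Sap30 (1.31 against 2.07). Replicate 4 was the highest for Inhba (166 against 144), Lcn2 (1769.8 against 1327) and Pcna (294 against 267) and the lowest for Elane (22049 against 25502).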

How the results depend on the processing

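Leaving out each library in turn gave 2574 to 2894 genes higher and 4413 to 4556 lower against resting CCR1/2 cells, and 2140 to 2521 higher and 2444 to 2710 lower against inflamed CCR1/2 cells. Against resting cells, members called higher ranged over these fits from 9 to 10 (primary granule), 2 to 4 (gelatinase granule), 16 to 19 (DNA replication) and 10 to 12 (mitosis), and the counts of specific granule, late neutrophil and monocyte core genes were as given in the report. DESeq2 called 2833 higher and 4255 lower, RLE factors 2899 and 4619, filterByExpr 2364 and 3558, no filter 2822 and 4746, the fit of all 19 libraries 2824 and 4801 and the GC correction 3450 and 4095.

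Some counts moved by more than 1.5 times. Without a fold cutoff 4855 genes were higher than in resting cells, 3771 were higher and 4290 lower than in inflamed CCR1/2 cells, and higher members numbered 5 (gelatinase granule), 30 (DNA replication) and 35 (mitosis, with 4 lower). Under the GC correction 19 mitosis genes were higher. The cause of that change was not tested.

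Whether replicate numbers pair the samples is not given in the sources used here, and so few pairs cannot decide it. Deviations from the group means correlated at -0.02 to 0.08 between same-numbered libraries over 4 pairs against resting cells, and at -0.34 to 0.19 over 3 pairs against inflamed CCR1/2 cells. Between libraries of different numbers they correlated at -0.07 to 0.06 and at -0.22 to 0.26. A replicate block gave 2625 genes higher and 4318 lower, and 2009 and 2327 in the second comparison. With the GC correction as well, the block gave 3341 and 3725, and 2385 and 2292, with 19 mitosis genes higher. It changed no list count given in the report against resting cells by over 1.5 times other than that for mitosis. The block ended the calls of Prss34 (6.39, adjusted p = 0.0660, and 6.37, adjusted p = 0.0650, with the GC correction, edgeR's quasi-likelihood test) and Oas2 (1.58, adjusted p = 0.0516), and with the GC correction Vcam1 became 4.69.

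Of 2746 values of 162 genes, 28 lost and 11 gained a call and 12 changed sign, all 12 of them uncalled in every fit named here. Chil3 became 0.16 (GC correction) and 0.23 (GC correction with the block), and ranged from -0.29 to 0.080 when 1 library was left out, above 0 without resting replicate 3 or 4. Itgam became 0.012 (RLE and DESeq2) and 0.13 (GC correction, with and without the block), and ranged from -0.098 to 0.12 when 1 library was left out, above 0 without resting replicate 3 or inflamed CCR1 replicate 2. Id2, a regulator not called in the main comparison, became 0.00020 and 0.0024 (GC correction without and with the block).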

Other observations

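The table held 7 gene IDs that are not of the Ensembl form and that the files pair with no name. All 7 were tested and called lower in the inflamed CCR1 than in the resting CCR1/2 libraries, and 6 were called lower and 0 higher than in the inflamed CCR1/2 libraries (edgeR's quasi-likelihood test). ENSMUSG000099999992 had 2497 to 3813 reads in the resting CCR1/2, 9 to 20 in the inflamed CCR1 and 4405 to 4647 in the inflamed CCR1/2 libraries. ENSMUSG000099999993 had 238 to 429, 0 to 5 and 1015 to 1351 reads.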
